A study of Homo sapiens with 8 samples.

Results

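ATF3, JDP2, TRIB3, DDIT4, STC2 and VEGFA are 6 stress-response genes that are linked to the transcription factor ATF4, and their expression was followed on 8 arrays of MOLM-14 cells. The genes were chosen by symbol from the platform annotation, and they are 6 of the 14884 genes that could be named on the array. They were picked with the difference between shCD39 and shCTRL arrays already known, so that difference is given here as a description. Counts of the 6 genes past a threshold stand only beside the share of all genes and test nothing about them. Each of the 6 genes had exactly 1 named probe set.

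MOLM-14 is an established human acute myeloid leukaemia line. In the tested arm (shCD39, 4 arrays) the cells carried a short hairpin RNA against ENTPD1, which encodes the ectoenzyme CD39, whose substrates are ATP and ADP outside the cell. In the control arm (shCTRL, 4 arrays) they carried a scrambled hairpin, and all cells of both arms had received doxycycline for 72 h, per the labels to switch the hairpin on. The labels call the 4 arrays of a group technical replicates and speak of clones without giving their number, so the spread between arrays may be technical, and no source used here gives the number or sequence of the hairpins.

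ATF4 is made when phosphorylation of the translation initiation factor eIF2 slows protein synthesis in general, as happens when amino acids are short, the endoplasmic reticulum is overloaded or mitochondria fail. It then switches on genes for amino acid synthesis and transport, for tRNA charging and for feedback on the response itself. ATF3 and JDP2 are bZIP transcription factors of the AP-1 group, TRIB3 is a pseudokinase that binds ATF4 and AKT, DDIT4 (REDD1) restrains the growth kinase complex mTORC1, and STC2 and VEGFA are secreted glycoproteins. DDIT4 and VEGFA are also textbook targets of hypoxia-inducible factors.

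The sequences before the annotated starts of these genes are shown because the 6 genes were lower together and ATF4 acts through a short DNA element, the C/EBP-ATF response element. RefSeq (build GRCh38.p14) gave start windows for 5 of the genes, ATF3, JDP2, TRIB3, DDIT4 and STC2, with 10 windows in all. Each window runs for 250 bases before and 50 after a start, and some windows of a gene overlap. The letters TGATGNAA, the core of the C/EBP-ATF element, were found on the strand of the gene in 2 windows, 191 bases before a start of ATF3 and 16 bases before a start of JDP2. Of all 35116 windows in the table, 3.62% held them on either strand. TGACGTCA, the cAMP response element, was in 0 of the 10 windows (1.85% of all windows), and its first 6 letters, TGACGT, were in 1, that of JDP2 (7.98%). The AP-1 site TGANTCA was in 0 (7.71%), and ACGTG, a form of the core of the hypoxia response element, was in 1, 125 bases before the start of DDIT4 (21.4%). Forms of that core with other letters were not searched. All 5 motifs were searched on both strands, TGACGT lies within TGACGTCA, and a match is only a match of letters. The 250 bases before the start are printed below for the 3 windows with a match, 5′ to 3′ on the plus strand, with the matched letters in capitals.
ATF3 (chr1:212565157-212565406): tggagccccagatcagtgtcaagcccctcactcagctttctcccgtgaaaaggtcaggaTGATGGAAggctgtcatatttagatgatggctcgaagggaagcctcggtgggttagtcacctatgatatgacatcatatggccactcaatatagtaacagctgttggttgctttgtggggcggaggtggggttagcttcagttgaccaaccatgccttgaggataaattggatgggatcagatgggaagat
JDP2 (chr14:75427772-75428021): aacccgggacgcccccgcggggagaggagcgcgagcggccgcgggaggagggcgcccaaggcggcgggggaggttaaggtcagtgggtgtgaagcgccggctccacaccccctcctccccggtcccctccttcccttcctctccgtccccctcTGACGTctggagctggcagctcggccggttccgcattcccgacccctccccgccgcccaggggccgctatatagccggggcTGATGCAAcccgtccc
DDIT4 (chr10:72273674-72273923): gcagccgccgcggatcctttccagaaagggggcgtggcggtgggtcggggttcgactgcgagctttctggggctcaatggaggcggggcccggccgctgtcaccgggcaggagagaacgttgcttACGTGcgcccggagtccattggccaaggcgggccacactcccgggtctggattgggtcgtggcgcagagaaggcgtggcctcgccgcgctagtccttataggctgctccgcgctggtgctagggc
Neither TRIB3 (3 overlapping windows) nor STC2 (1 window) held any of the 5 motifs, which says only that these letters are not in these windows.

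All values below are log2 expression values as deposited, where a step of 1 is a 2-fold change. Arrays had medians between 3.13 and 3.17, and all 6 genes read above the median of all values, 3.15, on all 8 arrays. ENTPD1, the target of the hairpin, read 2.42, 2.14, 2.72 and 2.95 on shCD39 arrays 1 to 4, against 3.16, 2.88, 3.21 and 4.12 on shCTRL arrays 1 to 4. It was above the median of all values on only 3 of 8 arrays, and below it on all shCD39 arrays, so its differences rest on dim values. Its groups overlapped, and its difference did not pass the threshold (log2 -0.79, SE 0.25, limma adjusted p = 0.178). Of 7 measured markers of myeloid leukaemia cells, 4 were higher and 3 lower in mean in shCD39, their mean level running over 6.78 to 7.23 in shCD39 and 6.60 to 6.83 in shCTRL arrays. The largest differences were those of the growth factor receptor CSF1R (1.36, limma adjusted p = 0.0849) and lysozyme, LYZ (1.07, limma adjusted p = 0.0926), and both passed without shCD39 array 4. FLT3, a receptor kinase of leukaemic blasts, averaged 9.38 in shCD39 and 9.66 in shCTRL arrays, and the monocyte marker CD14 averaged 2.47 in shCD39 and 2.38 in shCTRL arrays, both singled out with their values in view. Of the 18 measured markers of lymphoid, erythroid, megakaryocytic, fibroblast and epithelial cells, 0 passed the threshold by limma, beside 0.0941% of all genes. At an unadjusted limma p under 0.05, 2 of the 18 passed, beside 14.7% of all genes. The 7 fibroblast and epithelial markers were all higher in mean in shCD39 (median log2 0.21), their mean level running over 3.73 to 3.92 in shCD39 and 3.48 to 3.69 in shCTRL arrays, and the part of either marker list in the results below was not tested.

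All 6 genes had lower means in shCD39 than in shCTRL arrays, as did 48% of all genes. Their median log2 difference was -1.06, against 0.01 over all genes. ATF3 and STC2 were past the threshold of the fit across all genes (limma, adjusted p under 0.05), as were 0.047% of all genes in that direction. In 4 of the 6 genes the groups did not overlap, against 4.23% of all genes lower in shCD39 and 7.85% in either direction. Since the genes were chosen from this contrast, nothing is read from either count. In such bulk RNA, fewer cells that express a gene and less RNA per cell cannot be told apart.

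ATF3, which is induced by many kinds of stress and binds AP-1 and cAMP-type sites, read 3.35, 3.27, 3.23 and 3.47 on shCD39 arrays 1 to 4. On shCTRL arrays 1 to 4 it read 3.92, 4.21, 4.12 and 4.07. Every shCD39 array lay below every shCTRL array, with a gap of 0.46 between the nearest. This was the widest gap among the 6 genes, and both groups were tight (SD 0.11 in shCD39 and 0.12 in shCTRL, n = 4 each). The shCD39 values lay near the median of all values, 3.15, and how far such dim values are compressed is unknown. The log2 difference was -0.75 (SE 0.11), or 1.68-fold lower in shCD39.

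JDP2, which dimerises with JUN and mostly represses AP-1 sites, read 5.08, 4.89, 5.15 and 4.72 on the shCD39 arrays, against 5.32, 5.48, 5.43 and 5.21 on the shCTRL arrays. The groups did not overlap, but the gap between the nearest arrays was only 0.06. The mean was 4.96 ± 0.19 in shCD39 and 5.36 ± 0.12 in shCTRL (SD, n = 4 each). Its log2 difference of -0.40 (SE 0.12) was the smallest of the 6 genes.

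TRIB3 read 5.94, 5.86, 5.51 and 6.29 on shCD39 arrays 1 to 4. On shCTRL arrays 1 to 4 it read 8.35, 8.0, 8.42 and 6.34. The first 3 shCTRL arrays were high and close together, whereas shCTRL array 4 lay only 0.04 above the highest shCD39 array. The log2 difference over all arrays was -1.88 (SE 0.38), or 3.67-fold lower in shCD39, the largest of the 6 genes and the fourth lowest of the 14884 genes. The SD was 0.32 in shCD39 and 0.98 in shCTRL, and the larger value came with shCTRL array 4.

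DDIT4 read 8.57, 9.23, 8.53 and 9.52 on the shCD39 arrays, against 9.98, 9.97, 9.92 and 9.13 on the shCTRL arrays. The groups overlapped: shCD39 arrays 2 and 4 were above shCTRL array 4. The first 3 shCTRL arrays lay within 0.06 of each other, and shCTRL array 4 lay 0.82 below their mean. The log2 difference was -0.79 (SE 0.25), or 1.73-fold lower in shCD39.

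STC2, a secreted glycoprotein that is induced by endoplasmic reticulum stress, read 4.77, 5.02, 4.88 and 6.04 on shCD39 arrays 1 to 4. On shCTRL arrays 1 to 4 it read 7.39, 7.16, 7.01 and 6.32. The groups did not overlap, with a gap of 0.27 between shCD39 array 4 and shCTRL array 4. The mean was 5.18 ± 0.59 in shCD39 and 6.97 ± 0.46 in shCTRL (SD, n = 4 each), a log2 difference of -1.79 (SE 0.28) or 3.46-fold lower in shCD39.

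VEGFA, the growth factor of blood vessels, read 5.93, 6.49, 6.13 and 6.87 on the shCD39 arrays. On the shCTRL arrays it read 8.15, 7.79, 8.25 and 6.56. The groups overlapped by shCD39 array 4, which was 0.30 above shCTRL array 4, while shCTRL arrays 1 to 3 were all above every shCD39 array. The log2 difference was -1.33 (SE 0.33), or 2.52-fold lower in shCD39.

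**Figure D1:**
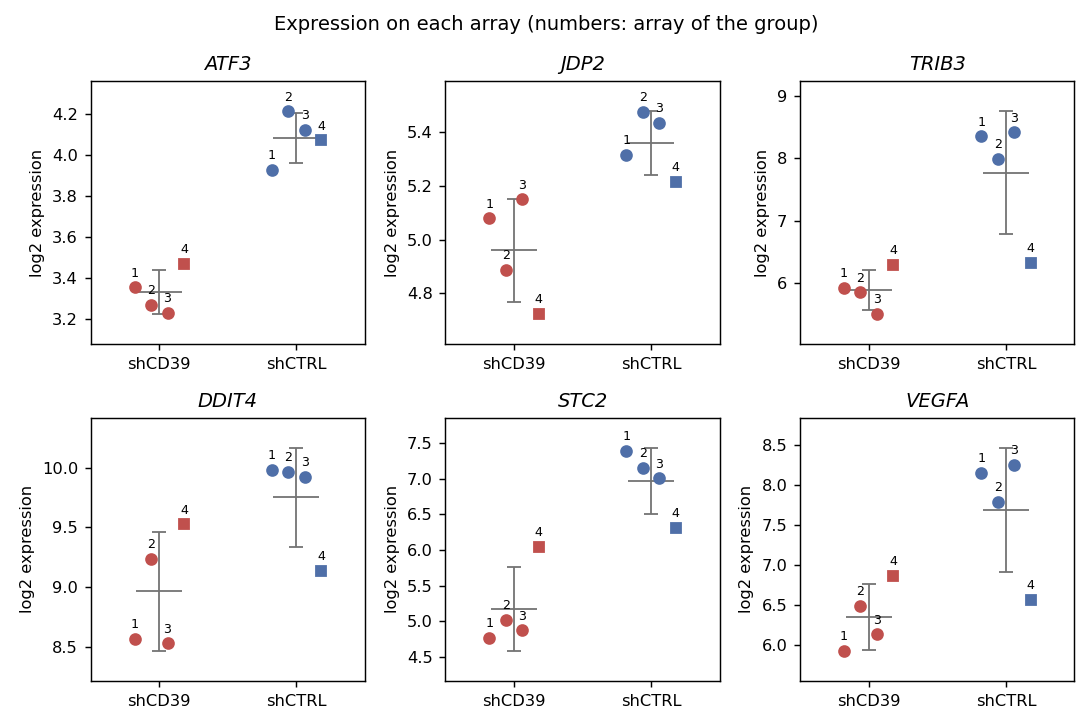
Log2 expression of the 6 genes (a panel each, y axis) on the shCD39 arrays (red, left) and shCTRL arrays (blue, right). Points are arrays with their number, squares are the arrays numbered 4, and grey bars give the mean and SD of 4 arrays. In ATF3 all shCD39 arrays lie below all shCTRL arrays with a gap of 0.46, while in DDIT4 and VEGFA shCD39 array 4 lies above shCTRL array 4.

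The arrays numbered 4 of both groups stood apart in TRIB3, DDIT4, STC2 and VEGFA. In all 4 of these genes shCD39 array 4 was the highest shCD39 array and shCTRL array 4 was the lowest shCTRL array, a combination that 6.97% of all genes showed. Over the 6 genes, shCD39 array 4 was highest in 5 (27.1% of all genes) and shCTRL array 4 was lowest in 5 (27.9%). The exceptions were JDP2, in which shCD39 array 4 was the lowest of its group, and ATF3, in which shCTRL array 1 was the lowest and shCTRL array 4 lay 0.02 below the mean of the other shCTRL arrays. The shift of shCTRL array 4 from the mean of the other shCTRL arrays was -1.92 in TRIB3, -1.50 in VEGFA, -0.87 in STC2 and -0.82 in DDIT4. That of shCD39 array 4 from the other shCD39 arrays was 1.15 in STC2, 0.75 in DDIT4, 0.68 in VEGFA and 0.52 in TRIB3.

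**Figure D2:**
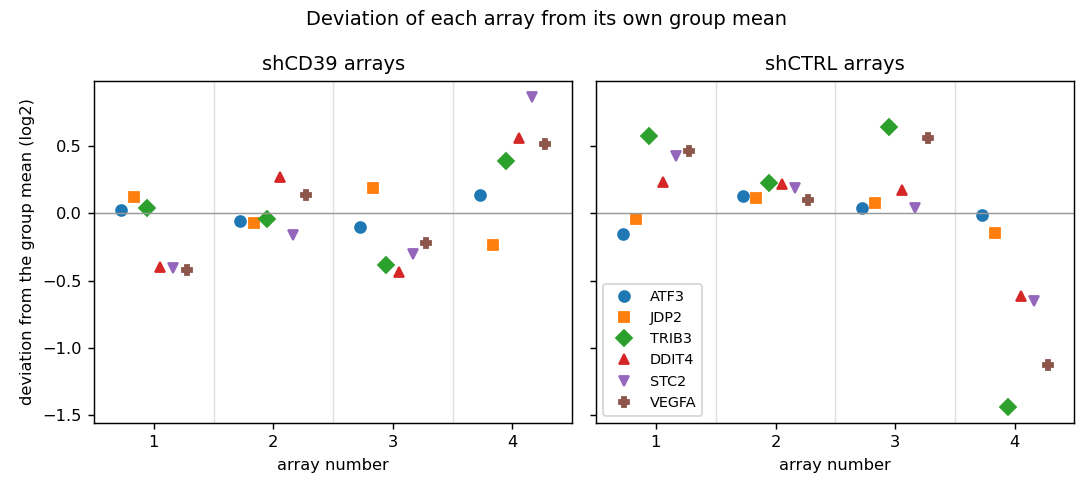
Deviation of each array from the mean of its own group (y axis, log2) for the shCD39 arrays (left) and the shCTRL arrays (right), with a marker for each gene. The x axis gives the array number, which carries no order; TRIB3, DDIT4, STC2 and VEGFA are above 0 on shCD39 array 4 and below 0 on shCTRL array 4, while ATF3 and JDP2 stay within 0.24 of 0 on all 8 arrays.

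The difference between the arms was therefore given separately for arrays 1 to 3 and for the arrays numbered 4, where 1 array faces 1 array and no error can be given. A shared number does not pair the arrays, and this split was made after the values were seen. In ATF3 the shCD39 minus shCTRL difference was -0.80 for arrays 1 to 3 and -0.60 between the arrays numbered 4, and in JDP2 it was -0.37 and -0.49. These genes were thus lower in shCD39 by a like amount in both sets. In TRIB3 it was -2.49 for arrays 1 to 3 and -0.04 between the arrays numbered 4, and in STC2 it was -2.29 and -0.27. In DDIT4 it was -1.18 and 0.39, and in VEGFA it was -1.88 and 0.30, so that in both genes the sign turned. The median over the 6 genes was -1.53 for arrays 1 to 3 and -0.16 between the arrays numbered 4, against 0.01 and 4.18e-05 over all genes. ENTPD1, which read below the median of all values on all shCD39 arrays, had -0.66 for arrays 1 to 3 and -1.17 between the arrays numbered 4. Its shCTRL array 4 read 4.12, with 2.88 to 3.21 on the other shCTRL arrays, while its shCD39 array 4 was the highest shCD39 array.

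**Figure D3:**
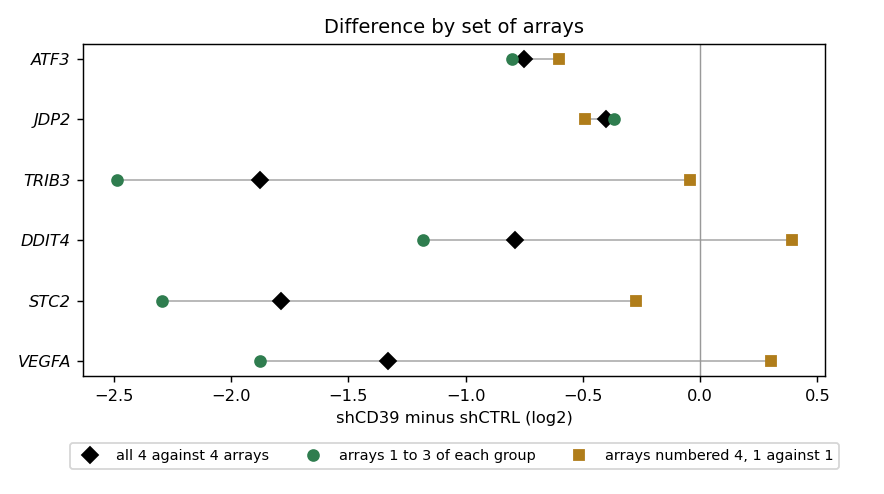
Difference shCD39 minus shCTRL (x axis, log2) of the 6 genes (rows) over all arrays (black diamonds), over arrays 1 to 3 of each group (green circles) and between the arrays numbered 4 (brown squares, 1 array against 1). ATF3 at -0.80 and -0.60 and JDP2 at -0.37 and -0.49 differ little between the sets, while TRIB3 is at -2.49 and -0.04.

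The number of the 6 genes past the limma threshold across all genes moved with single arrays, and it is given here only beside the share of all genes. The genes were picked from this contrast, and the arrays numbered 4 were seen to narrow it in most of them, so these counts restate both choices and nothing is read from them. Without shCD39 array 4 the count was 4, against 2.1% of all genes lower in shCD39, and without shCTRL array 4 it was 4, against 0.228%. Without both it was 5, against 1.85%. Without any of the other 6 arrays it was 0, against 0.0202% without shCD39 array 1, 0.00672% without shCD39 array 2 and 0% without each of the others. All 6 genes were lower at an unadjusted limma p under 0.05 in each of these fits. In the same fits between 1574 and 2812 of all 14884 genes passed that cut in either direction, and nothing is read from this count either. The log2 difference ran over -1.66 to -2.36 in TRIB3, -1.65 to -2.08 in STC2, -1.15 to -1.71 in VEGFA, -0.64 to -0.99 in DDIT4, -0.71 to -0.80 in ATF3 and -0.32 to -0.46 in JDP2 as each array was left out in turn.

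Array-to-array variation within the groups was alike in TRIB3, DDIT4, STC2 and VEGFA over the 8 arrays. It was described with Pearson's r between the deviations of 2 genes from their group means over the 8 arrays, so the difference between the arms does not enter. The 6 pairs among TRIB3, DDIT4, STC2 and VEGFA had r between 0.74 (TRIB3 with STC2) and 0.94 (TRIB3 with VEGFA). The 9 pairs with ATF3 or JDP2 had r between -0.39 and 0.33. The grouping of 4 genes was made after these values were seen, and all r share the same 8 arrays. The high values rest largely on the arrays numbered 4: over the other 6 arrays the 6 pairs ran over -0.04 to 0.67, with DDIT4 and VEGFA the highest and TRIB3 and STC2 the lowest. Over the same 6 arrays the 9 pairs with ATF3 or JDP2 ran over -0.85 to 0.46 with a median of -0.56, which is larger in size than the median of 0.40 over the 6 pairs. JDP2 and DDIT4 had r = -0.38 over 8 arrays and -0.85 over 6. Pooling the arms also hid opposite orders, though 4 arrays in an arm are too few for an r. JDP2 was lowest on shCD39 array 4, where DDIT4 and VEGFA were highest, while on shCTRL array 4 all 3 genes were lowest. ATF3 and TRIB3 had the same order of arrays in shCD39 and different orders in shCTRL.

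Other genes with a like pattern were sought among 11909 protein-coding genes with the same measure, again as a description. For DDIT4 the highest was CBS, the enzyme of the transsulfuration pathway that joins serine and homocysteine (r = 0.99 over 8 arrays and 0.99 without the arrays numbered 4), followed by RSL24D1, a ribosome biogenesis factor (0.99 and 0.98). For STC2 it was PCK2, the mitochondrial phosphoenolpyruvate carboxykinase (0.99 and 0.90), followed by MKKS (0.98 and 0.81). For TRIB3 it was the semaphorin receptor PLXNA1 (0.99 and 0.86), followed by NPIPA1 (0.97 and 0.90). For VEGFA it was the kinase RIOK3 (0.98 and 0.89), followed by the adaptor protein PAG1 (0.97 and 0.86). The closest to ATF3 were RORA (0.96) and CFAP210 (0.96), but both read below the median of all values, 3.15, on all 8 arrays. The closest to JDP2 were the mediator subunit MED21 (0.99) and VWCE (0.98). Between 31 and 110 genes had r above 0.9 with a given member. For the mean deviation of the 6 genes the 5 closest were EXOSC9, TSPAN19, OSBPL1A, NPIPA1 and EXOSC8 (r from 0.95 to 0.97), but TSPAN19 read below the median of all values on all 8 arrays. Without the arrays numbered 4 their r was 0.78, 0.38, 0.80, 0.54 and 0.85, in the same order. By Spearman's rho 0 of these 5 stayed among the 5 closest, and with the group difference kept 2 did. EXOSC9 and EXOSC8 are subunits of the RNA exosome.

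Other ATF4 targets were read from a list of 50 genes, of which 28 were measured here. The list was written with earlier results of these data known, so its counts are a description and test nothing. In 27 of the 28 the mean was lower in shCD39, with a median log2 difference of -0.83 against 0.01 over all genes, and 17 had groups that did not overlap, all lower in shCD39 (4.23% of all genes). None passed the limma threshold across all genes, where 0.0941% of all genes did in either direction, and 26 were lower at an unadjusted p under 0.05 (8.13% of all genes). Without shCD39 array 4, 19 of the 28 fell past the threshold (2.1% of all genes), without shCTRL array 4 it was 7 (0.228%), and without both it was 21 (1.85%). With array weights, an alternative that gives each array a weight by its scatter, it was 13 (0.585%). CTH, an enzyme of cysteine synthesis, had the largest difference (log2 -2.10, SE 0.46, limma adjusted p = 0.0908). ATF5, a bZIP factor downstream of ATF4, came next (-1.58, SE 0.37, limma adjusted p = 0.101). GDF15, a secreted stress hormone, had -0.09 and was singled out after its value was seen. FGF21, another, was above the median of all values on only 1 of 8 arrays, so its difference of 0.00 says nothing about it.

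The arrays numbered 4 stood apart in most of these targets too. In 25 of the 28, shCTRL array 4 was the lowest shCTRL array (27.9% of all genes). In 23, shCD39 array 4 was the highest shCD39 array (27.1%), and 21 showed both (6.97%). The list was written with earlier results of these data known, so these counts test nothing either. Between the arrays numbered 4 the median shCD39 minus shCTRL difference of the 28 genes was -0.05, against -1.07 for arrays 1 to 3. ATF5 read 5.20, 5.22, 5.06 and 5.37 on the shCD39 arrays, against 7.47, 6.75, 7.56 and 5.40 on the shCTRL arrays, the same order as TRIB3 in placing shCTRL array 4 just above the shCD39 arrays. The median r of the 28 targets within the groups was 0.87 with DDIT4, 0.81 with STC2, 0.71 with VEGFA and 0.66 with TRIB3. It was 0.38 with ATF3 and -0.46 with JDP2, and for all genes the medians lay between 0.00 and 0.04. Without the arrays numbered 4 the medians were 0.82 with DDIT4, 0.59 with VEGFA, 0.42 with STC2 and 0.21 with TRIB3, and -0.03 with ATF3 and -0.69 with JDP2.

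**Figure D4:**
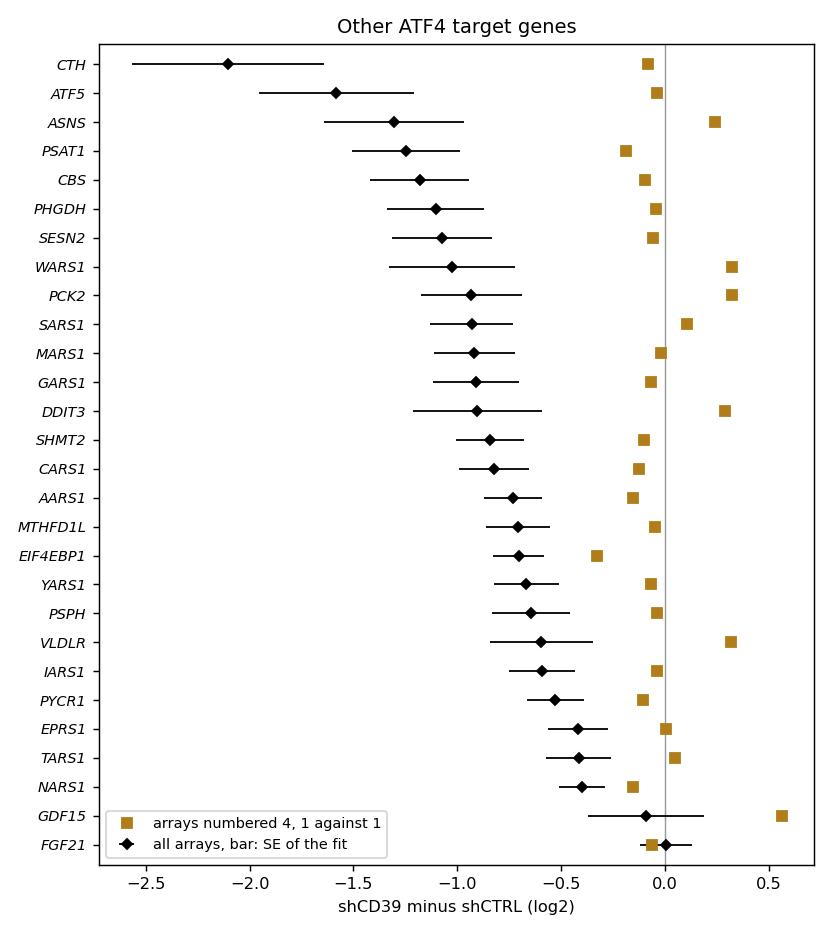
Difference shCD39 minus shCTRL (x axis, log2) of the 28 measured ATF4 targets other than the 6 genes (rows), over all arrays with the SE of the fit (black diamonds and bars) and between the arrays numbered 4 (brown squares, 1 array against 1). The median is -0.83 over all arrays and -0.05 between the arrays numbered 4.

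ATF4 itself did not pass the threshold at the RNA level. It read 8.33, 8.49, 8.53 and 8.89 on the shCD39 arrays, against 8.83, 8.84, 8.75 and 8.65 on the shCTRL arrays. The groups overlapped by shCD39 array 4, the highest of all 8 arrays, and the log2 difference was -0.21 (SE 0.13, limma adjusted p = 0.506). ATF4 is controlled at translation, which arrays do not measure. DDIT3 (CHOP), which is induced by ATF4 and dimerises with other bZIP factors, read 4.20, 4.64, 3.73 and 4.33 on the shCD39 arrays, against 5.52, 5.37, 5.59 and 4.04 on the shCTRL arrays. Here too shCTRL array 4 was inside the shCD39 range (log2 difference -0.90, SE 0.31, limma adjusted p = 0.208).

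Of the 9 measured regulators of the integrated stress response, which include ATF4 and 4 eIF2 kinases, 7 were lower in mean and 0 passed by limma, with 3 lower at an unadjusted p under 0.05 (8.13% of all genes). Their median log2 difference was -0.21. The largest difference was that of DELE1, which relays mitochondrial stress to the eIF2 kinase HRI (-0.55, SE 0.12, limma adjusted p = 0.0873). DELE1 fell past the threshold without shCD39 array 4. IMPACT, an inhibitor of the eIF2 kinase GCN2, had -0.46 (SE 0.20, limma adjusted p = 0.322). EIF2AK3 (PERK) had -0.35 and EIF2AK4 (GCN2) 0.19, both chosen after their values were seen.

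Among the 28 measured bZIP factors, relatives and partners of ATF3 and JDP2, 12 were lower and 16 higher in mean, with a median log2 difference of 0.01. None passed by limma, with 4 lower and 3 higher at an unadjusted p under 0.05, where 8.13% of all genes were lower and 6.54% higher, or 14.7% in either direction. Besides ATF5, the largest difference was that of JUN, the partner of JDP2 and ATF3 in AP-1, which was higher in shCD39. JUN read 4.62, 4.36, 4.87 and 3.93 on the shCD39 arrays, against 3.69, 3.17, 3.64 and 3.25 on the shCTRL arrays. The groups did not overlap, but the log2 difference of 1.01 (SE 0.20) did not pass with all arrays (limma adjusted p = 0.0783). Without shCD39 array 4 JUN rose past the threshold, and so did FOS, whose log2 difference was 0.56 (SE 0.14) with all arrays and which was chosen after its values were seen. Without shCTRL array 4, ATF5 and DDIT3 fell past it.

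The tribbles relatives of TRIB3 were not lower in shCD39. TRIB1 had a log2 difference of 0.34 (SE 0.15, limma adjusted p = 0.322) and TRIB2 of 0.01 (SE 0.12, limma adjusted p = 0.974). AKT2, a kinase that TRIB3 binds, had -0.07 (SE 0.15, limma adjusted p = 0.877). Of 4 measured genes of this list 0 passed by limma and 1 had an unadjusted p under 0.05 (14.7% of all genes).

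Around DDIT4, 15 genes of mTORC1 and its control were measured, 8 lower and 7 higher in mean with a median log2 difference of -0.06. At an unadjusted limma p under 0.05, 3 were lower and 2 higher, against 14.7% of all genes in either direction. Past the limma threshold across all genes was 1 of the 15, beside 0.0941% of all genes in either direction. SESN1, a p53-induced inhibitor of mTORC1, was the member that passed, and it rose in shCD39 (log2 1.31, SE 0.20, limma adjusted p = 0.0432). It read 8.45, 8.0, 8.47 and 7.71 on the shCD39 arrays, against 6.82, 6.44, 6.86 and 7.26 on the shCTRL arrays. SESN1 did not pass when any array numbered 1 to 3 was left out, with limma adjusted p between 0.101 and 0.193, nor after quantile normalization (0.0542). SESN2, its ATF4-induced relative, lay on the other side of 0 (-1.07, SE 0.24, limma adjusted p = 0.0939), as did EIF4EBP1, the mTORC1-controlled inhibitor of translation (-0.71, SE 0.12, limma adjusted p = 0.0698). Both were picked with their values in view, and both fell past the threshold without either of the arrays numbered 4. DDIT4L, the paralogue of DDIT4, had -0.07, also chosen after its value was seen.

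Among the families of the secreted factors, 2 of the other members were lower and 7 higher in mean. STC1, the paralogue of STC2, had a log2 difference of 0.24 (SE 0.13, limma adjusted p = 0.454), but it read below the median of all values on all 8 arrays. Of the VEGFA relatives, VEGFB had 0.06 (SE 0.17), VEGFC 0.34 (SE 0.13) and PGF 0.08 (SE 0.17), with limma adjusted p between 0.247 and 0.919. VEGFC was above the median of all values on only 4 of 8 arrays. NRP1, a co-receptor of VEGFA, had 0.32 (SE 0.13, limma adjusted p = 0.295). Of the 9 measured genes of these families, receptors included, 0 passed by limma, with 2 higher at an unadjusted p under 0.05 (6.54% of all genes), and the median was 0.15.

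The hypoxia program, to which DDIT4 and VEGFA also belong, was split in direction. Of its 16 other measured genes, 9 were lower and 7 higher in mean, with a median log2 difference of -0.01, and 0 passed by limma (1 lower and 1 higher at an unadjusted p under 0.05, against 14.7% of all genes in either direction). EPAS1, the factor HIF-2 alpha, had 0.45 (SE 0.21, limma adjusted p = 0.342) and the mitophagy receptor BNIP3L 0.41 (SE 0.14, limma adjusted p = 0.215). The unfolded protein response, with 8 measured genes, had 4 lower and 4 higher, a median of -0.02 and 0 past the threshold by limma (1 lower and 1 higher at an unadjusted p under 0.05, against the same 14.7%). SEL1L, a subunit of the degradation machinery of the endoplasmic reticulum, had -0.58 (SE 0.17, limma adjusted p = 0.156) and the stress sensor ERN1 had -0.30 (SE 0.23, limma adjusted p = 0.609). The lists of hypoxia and of the unfolded protein response kept 0 genes past the threshold in every fit that left out 1 array.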

How the data were processed

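RNA of 8 samples went onto Affymetrix arrays after GeneChip WT PLUS labelling, per the labels' protocols. The deposited log2 values, 1 per probe set, were made by the authors with RMA in oligo (no version), per the submitters' processing notes; RMA sets all arrays to a shared distribution, so a change is relative to the bulk of probe sets. Array model and genome build: not given in the sources used here. The number of arrays limits the precision. Of 53617 probe sets, 16098 had exactly 1 gene symbol, 0 had several and 37519 are unnamed here; symbols were updated through Entrez IDs (RefSeq, GRCh38.p14). The probe set with the highest mean stood for a gene (14884 genes), with no filter on dim genes.

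Groups were compared with limma 3.58.1 in R 4.3.3 (lmFit, eBayes, 2-sided, Benjamini-Hochberg over all genes, threshold 0.05), tested on simulated data. Fold changes are shCD39 minus shCTRL. The genes, lists and tests were chosen with earlier results of these data known. From each of the 13 lists, up to 4 genes past the threshold were picked, or else the 2 with the largest difference. Also picked were the 6 genes, ENTPD1, ATF4, DDIT3, and the TRIB, STC and VEGF relatives. The closest genes by r were added (5 for the mean, 2 per gene). Those picked from the lists of other cell types are not named above. Lists share some genes. Same-numbered arrays did not deviate together (correlations of deviations from -0.04 to 0.06), so numbers were not taken as pairs. Alternatives were other normalizations, a dim filter, all probe sets, a trend and robust prior, array weights, the replicate block and leaving out arrays. Figures used matplotlib 3.10.9.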

Additional observations from a re-analysis of the deposited data

Results flagged for a closer look

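For the 53 genes picked by the rule given above, each group of 4 arrays was searched for an array far from the other 3. Other genes discussed above, such as SESN2, EIF4EBP1 and FOS, were not searched. The search used Dixon's ratio, at a limit that chance alone exceeds in about 1 in 20 groups. Of 106 groups, 10 held such an array, and 7 of the 10 were arrays numbered 4. The genes searched include some chosen for their likeness to the 6 genes, in which the arrays numbered 4 stand apart: NPIPA1, CBS, RSL24D1 and PCK2 are such genes and DDIT4 is one of the 6, so the count of 7 cannot be set against the chance rate. PCK2 read 6.52 on shCD39 array 4, with 5.35 to 5.54 on the other shCD39 arrays. On shCTRL array 4, DDIT4 read 9.13 (9.92 to 9.98 on the other shCTRL arrays), DDIT3 read 4.04 (5.37 to 5.59) and CTH read 6.23 (7.29 to 7.50). On the same array NPIPA1 read 8.31 (8.89 to 9.0), CBS read 5.41 (6.09 to 6.17) and RSL24D1 read 8.55 (8.97 to 9.05). The other 3 were AKT2 at 5.71 on shCD39 array 1 (5.02 to 5.14 on the other shCD39 arrays), ERN1 at 5.20 on shCD39 array 3 (4.72 to 4.79) and EPAS1 at 5.42 on shCTRL array 3 (5.94 to 6.0 on the other shCTRL arrays).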

How the results depend on the processing

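The log2 difference of each of the 6 genes stayed below 0 in all 72 values recomputed under 12 alternatives that can move it. Array weights can move the difference too and are not counted among the 12. The replicate block and the mean of all probe sets leave it as it is. Leaving out arrays could not turn its sign in ATF3, JDP2, TRIB3 and STC2, because their groups do not overlap. The 6 genes were also picked with this difference known, so its sign tests nothing. Its median over the 6 genes ran over -0.94 to -1.35 as each array was left out. Counts past the threshold moved with the processing. Across all genes limma called 14 genes, but 5 after quantile normalization and 23 with a filter on dim genes. It called 22 with an intensity trend and a robust prior together, 124 with array weights and 6 with the replicate block. The count ran between 0 and 423 as each array was left out. Without both arrays numbered 4, an alternative chosen after seeing the data, it was 368. Of the 6 genes, 2 passed with all arrays, 0 after quantile normalization, 0 with the replicate block and 1 after cyclic loess (ATF3). Between 0 and 4 of them passed as each array was left out, and 5 without both arrays numbered 4. At an unadjusted limma p under 0.05 all 6 passed after quantile normalization, beside 2063 of all genes. With the replicate block all 6 did, beside 2151 of all genes. With quantile normalization the 5 calls were all higher in shCD39, as were 7 of 10 after cyclic loess, against 7 of 14 as deposited. Other ATF4 targets gave 0 calls with all arrays (26 at an unadjusted p under 0.05), 13 with array weights, between 0 and 19 as each array was left out, and 21 without both arrays numbered 4. The counts of genes with shCTRL array 4 lowest (5), shCD39 array 4 highest (5) and groups that do not overlap (4) were the same after quantile normalization, median centring and cyclic loess. SESN1 had a limma adjusted p of 0.0851 with the replicate block. Of the 5 genes closest to the mean deviation, 0 stayed with Spearman's rho and 2 with the group difference kept. The median r among TRIB3, DDIT4, STC2 and VEGFA was 0.86 over 8 arrays, 0.40 without both arrays numbered 4, and between 0.76 and 0.90 as each array was left out. The cause of these shifts was not tested. Array-level signal over background was not used here, so how far dim values such as those of ATF3 are compressed is unknown.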
